A study of Rattus norvegicus with 6 samples.

Results

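Mechanotransduction genes are those whose proteins turn the deflection of the hair bundle into a current in the inner ear's hair cells (HCs). The 9 genes described here are Tmc1, Tmc2, Tmie, Lhfpl5, Cib2, Cib3, Cdh23, Pcdh15 and Loxhd1, which were taken by symbol from the deposited table of 32883 rat genes. All 9 had a single row and all 9 passed the filter on low counts that left 14352 genes for testing. The table covers 6 male Long-Evans rats, which the study received at 8 to 9 weeks of age. In the IDPN-4wk group, 3 rats were exposed for 4 weeks to the ototoxic nitrile 3,3'-iminodipropionitrile (IDPN) at 20 mM in their drinking water, while the 3 rats of the Control group had plain water. Both utricles and all 6 cristae of a rat were pooled into 1 library, so each value is an average over these organs and over all their cell types.

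In a vestibular HC, the tip link joins each stereocilium to its taller neighbour and pulls on the transduction channel when the bundle tilts. The upper part of the link is cadherin-23 and the lower part is protocadherin-15. The channel at the lower end is built from the pore-forming proteins TMC1 and TMC2 with the subunits TMIE and LHFPL5, and the calcium-binding proteins CIB2 and CIB3 bind the TMCs from the inside. LOXHD1 is a stereociliary protein of PLAT domains that mature HCs need for transduction.

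The transcripts of this machinery did not change as a block. Pcdh15, Cib3, Loxhd1, Tmc1 and Cdh23 were lower in IDPN-4wk than in control rats, by 8.50-fold, 3.99-fold, 3.48-fold, 2.65-fold and 2.12-fold. Lhfpl5, Tmc2, Tmie and Cib2 were not called, with means at 69.7%, 67.8%, 112.1% and 101.2% of control, though Lhfpl5 passed the test on Padj alone. Genes were called changed at an adjusted p (Padj, edgeR) under 0.05 and a fold change over 1.5. Of the 9 genes, 5 were called lower, against 6.62% of all genes tested, and 0 were called higher, against 3.09%. The count of higher genes was also 0 at an unadjusted p under 0.05, with DESeq2 and with limma voom. With Padj alone 6 genes were lower and 0 higher, where the shares over all genes were 11.5% and 7.89%. In 6 genes every treated rat was below every control, against 19.3% of all genes (18.5% in the other direction), and 7 of 9 had a log2-Fold change below 0, against 47.2%. The median log2-Fold change was -1.08 over the 9 genes and 0.02 over all genes tested. Of all calls, 68.1% were decreases with TMM scaling and 50.6% with library size alone, which moved the median of all genes to 0.13.

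The libraries held from 13358678 to 18561991 counts, and levels are given as CPM, a gene's share of the counts of its library scaled to a common total with TMM. Errors given as ± are SDs over the 3 rats of a group. Replicates are separate animals, and all 6 carry the same batch label. Levels of different genes were not compared with each other, since no transcript lengths were used here. In tissue of mixed cells, fewer HCs and less RNA per HC cannot be told apart from read counts. For this exposure the study counted HCs in other rats, with a significant decrease in the centre of the crista only. From this it calculated a limited maximum loss of HCs for the sequenced samples. It also found less label per HC for some, but not all, of the HC proteins it measured. HC markers moved in the same direction: 19 of 21 were lower, 10 of them called. Their summed level was 2432 to 2599 CPM in control and 1305 to 1640 CPM in IDPN-4wk libraries, with no marker at 0 in a library. Not all of them mark every HC. The study describes oncomodulin (Ocm2) and calretinin (Calb2) in only some HCs, and calretinin also in some nerve endings. Supporting cell markers were lower in 9 of 12 cases, 6 of them called, with sums of 31283 to 32670 CPM and 17451 to 18936 CPM, and their part in the results was not tested. Schwann cell markers had a negative log2-Fold change in 7 of 8 cases, 6 of them with Padj under 0.05, and a median of -0.49, with summed levels of 13016 to 16291 CPM in controls and 9328 to 12866 CPM in treated rats. Negative values were also found for 7 of 8 dark cell and melanocyte, 5 of 7 neuron, 5 of 8 stroma, 4 of 5 endothelium, 5 of 10 macrophage and leukocyte and 0 of 3 red blood cell markers. Among these markers, 1 of 8 was called lower for Schwann cells, 2 of 7 for neurons, 1 of 10 for macrophages and leukocytes, 2 of 8 for stroma, 1 of 5 for endothelium, 3 of 8 for dark cells and melanocytes and 0 of 3 for red blood cells, where none had an unadjusted p under 0.05 for a decrease. In the same lists 2 neuron markers (Nefh and Prph), 1 of macrophages and leukocytes (C1qb), 1 of stroma (Col1a1) and 1 of red blood cells (Hbb) were called higher. Over all genes tested, 6.62% were called lower and 3.09% higher. The medians of these lists ran from -0.63 to 0.66 on the log2 scale, and their part was likewise not tested.

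**Figure D1:**
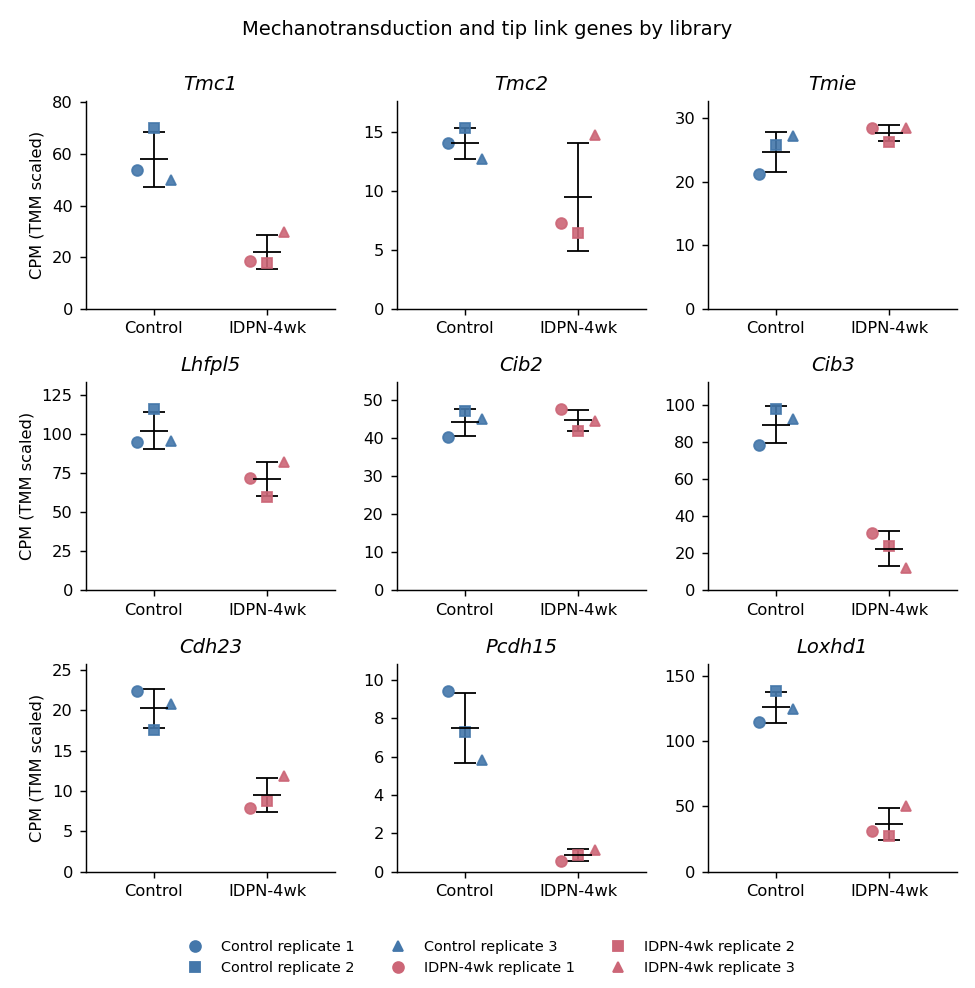
Levels of the 9 genes in each library, in CPM after TMM scaling, with an axis from 0 for each gene. Points are rats, the shape gives the replicate, and bars are the mean and SD (n = 3). The groups separate for Tmc1, Cib3, Cdh23, Pcdh15, Loxhd1 and Lhfpl5 and overlap for Tmc2, Tmie and Cib2.

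The pore-forming genes came first. Tmc1 (ENSRNOG00000051262) was at 53.9, 70.1 and 49.9 CPM in the control libraries and at 18.5, 17.6 and 29.6 CPM in the IDPN-4wk libraries. Each treated rat was below every control, and the mean was 37.8% of control. The log2-Fold change was -1.41 (SE 0.19, edgeR Padj 0.000677). Tmc2 (ENSRNOG00000007017) stood at 14.0, 15.3 and 12.7 CPM in the controls and at 7.26, 6.45 and 14.7 CPM in the treated rats. In replicates 1 and 2 of the treated rats it was below every control, while replicate 3 lay within the control range. With all 6 libraries the log2-Fold change of Tmc2 was -0.57 (SE 0.27, edgeR Padj 0.176), with a 95% interval from -1.17 to 0.04. The value depended on which treated rat was included: the log2-Fold change was -1.04 without IDPN-4wk replicate 3 (edgeR Padj 0.00265), -0.34 without replicate 2 (edgeR Padj 0.436) and -0.42 without replicate 1 (edgeR Padj 0.412). For Tmc1 omitting replicate 3 gave -1.69.

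The channel subunits were among the less affected genes. Lhfpl5 (ENSRNOG00000022283), the tetraspan protein that couples protocadherin-15 to the channel, was at 94.9, 115.8 and 95.6 CPM in the controls and at 71.9, 59.9 and 81.9 CPM in the treated rats. The groups did not overlap, and the log2-Fold change of -0.52 (SE 0.12, edgeR Padj 0.0117) was under the fold change threshold. Without IDPN-4wk replicate 3 it was -0.65 and past both thresholds. Tmie (ENSRNOG00000027799), a small membrane protein of the channel complex, was at 21.2, 25.8 and 27.2 CPM in the controls and at 28.5, 26.3 and 28.4 CPM in the treated rats. Its groups overlapped, and the log2-Fold change of 0.16 (SE 0.12, edgeR Padj 0.373) had a 95% interval from -0.10 to 0.43, so that a decrease of the size seen for Tmc1 lay outside it. With a library omitted it ranged from 0.06, without control replicate 1, to 0.24.

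The CIB genes encode paralogous calcium-binding proteins and differed from one another. Cib2 (ENSRNOG00000059834) was at 40.1, 47.0 and 44.9 CPM in the controls and at 47.4, 41.8 and 44.5 CPM in the treated rats. Its groups overlapped throughout, and the log2-Fold change was 0.02 (SE 0.09, edgeR Padj 0.921) with a 95% interval from -0.19 to 0.23. Cib3 (ENSRNOG00000014600) was at 78.3, 97.6 and 92.2 CPM in the controls and fell to 31.1, 24.0 and 12.2 CPM in the treated rats. All treated rats lay far below the controls, and their mean was 25.1% of the control mean. The log2-Fold change of Cib3 was -1.997 (SE 0.25, edgeR Padj 0.000332), and without IDPN-4wk replicate 3, its lowest library, it was -1.71. RefSeq places Hsh2d over part of the span of Cib3, and the protocol keeps no strand. Hsh2d had 1.26 ± 0.38 CPM in controls and was called higher in treated rats, with 3.35 ± 0.68 CPM.

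Both cadherins of the tip link were lower, to different degrees. Cdh23 (ENSRNOG00000033087) was at 22.4, 17.6 and 20.7 CPM in the controls and at 7.91, 8.82 and 11.9 CPM in the treated rats. All treated libraries were below all controls (log2-Fold change -1.08, SE 0.17, edgeR Padj 0.00167). Tested against the 1.5-fold change itself with glmTreat, Cdh23 had a Padj of 0.0532 and was no longer called. Pcdh15 (ENSRNOG00000000606) was at 9.43, 7.27 and 5.80 CPM in the controls and at 0.58, 0.88 and 1.16 CPM in the treated rats. It was the member with the lowest fold change and fell to 11.6% of its control level, or by 3.09 on the log2 scale (SE 0.33, edgeR Padj 0.000136). These levels rested on 146, 104 and 82 counts in control and on 8, 17 and 18 counts in IDPN-4wk libraries, so its fold change is known less precisely, with a 95% interval from -3.81 to -2.37. In RefSeq the span of Cdh23 overlaps Psap and Vsir, so reads of these genes cannot be fully separated without strand. Psap had 2041 ± 192 CPM in controls and 1879 ± 74.8 CPM in treated rats (edgeR Padj 0.345), and Vsir 6.02 ± 1.05 and 3.80 ± 1.16 CPM.

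Loxhd1 (ENSRNOG00000017410) was at 115.0, 138.5 and 124.6 CPM in the controls and at 31.4, 27.3 and 50.2 CPM in the treated rats. The highest treated rat remained far below the lowest control. The log2-Fold change of Loxhd1 was -1.80 (SE 0.18, edgeR Padj 0.000119), and its mean was 28.8% of control.

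**Figure D2:**
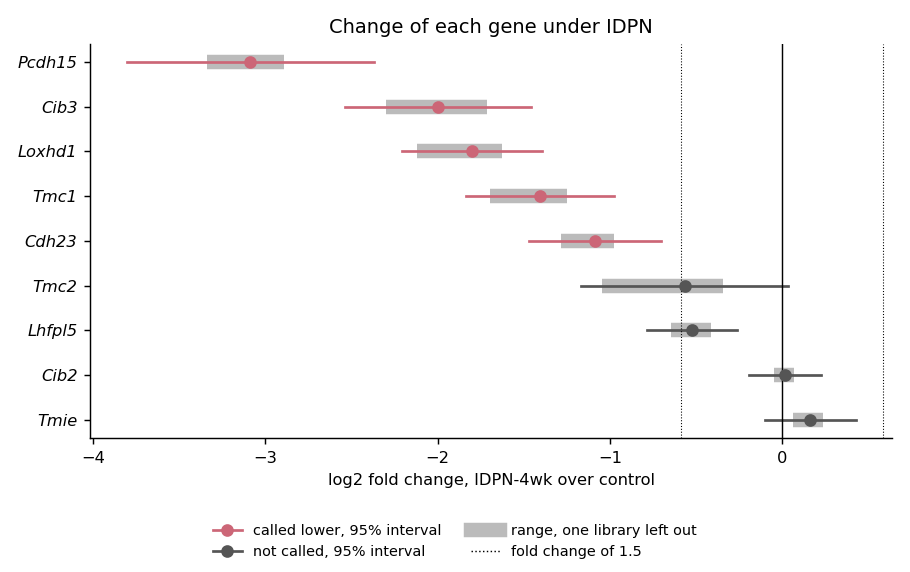
Log2-Fold change of each gene, IDPN-4wk over control, from the edgeR fit, ordered by size. Points are estimates, thin lines are 95% intervals, grey bars span the 6 fits that each left out a library and dotted lines mark a 1.5-fold change. The intervals of Pcdh15, Cib3, Loxhd1, Tmc1 and Cdh23 lie wholly below the dotted line, and those of Tmc2, Cib2 and Tmie include 0.

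The order of the treated rats differed between genes. Among the IDPN-4wk libraries, replicate 3 had the highest level of 6 genes, namely Tmc1, Tmc2, Lhfpl5, Cdh23, Pcdh15 and Loxhd1. For Cib3 the same library was the lowest, at 12.2 CPM. Replicate 1 had the highest level of the remaining 3 genes, Tmie, Cib2 and Cib3. The spread among treated rats was widest for Tmc2 and Cib3, with a coefficient of variation of 48.2% and 42.7%, against 9.42% and 11.1% among controls. For Tmie and Cib2 it was 4.53% and 6.36%. The 5 calls held in each of the 6 fits that left out a library.

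Ratios of genes within a library depend little on how libraries are scaled, and 6 pairs were compared on the log2 scale. Only the change of a ratio is read here, as its level depends on transcript length. The Cib3 to Cib2 log2 ratio was 0.96, 1.05 and 1.03 in control and -0.61, -0.80 and -1.86 in IDPN-4wk libraries, a 4.30-fold difference. The Cdh23 to Pcdh15 log2 ratio went from 1.24, 1.26 and 1.81 to 3.51, 3.15 and 3.22, so that Cdh23 transcripts were 3.63-fold more abundant relative to those of Pcdh15 in treated rats. No treated library lay within the control range of this ratio between the tip link genes. The Tmc2 to Tmc1 log2 ratio went from a mean of -2.03 ± 0.14 to -1.26 ± 0.23, a 1.71-fold shift towards Tmc2. The ratio of Lhfpl5 to Pcdh15 was 5.36-fold higher in treated rats, and that of Tmie to Lhfpl5 was 1.62-fold higher. The Loxhd1 to Tmc1 log2 ratio had the smallest difference of the 6, at -0.42. In all 6 pairs the groups did not overlap, and the two-sided exact permutation test gave p = 0.10 for each, also 0.10 after Benjamini-Hochberg adjustment over the 6 pairs. This is the smallest p that 3 against 3 libraries allow, so no pair could pass 0.05.

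**Figure D3:**
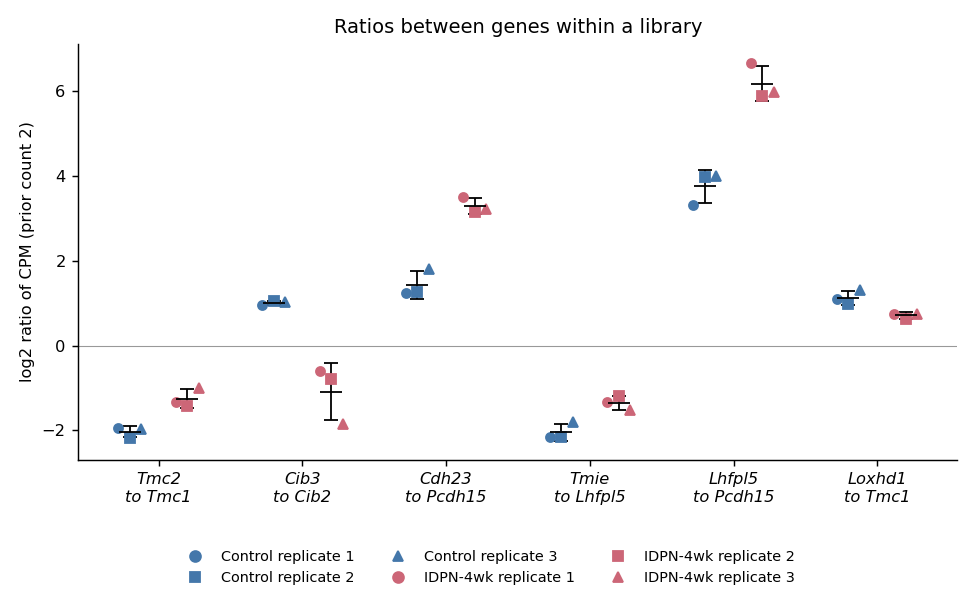
Log2 ratio of CPM (prior count 2) between 2 genes of the same library for 6 pairs. Points are rats, with the shape giving the replicate, and bars are the mean and SD (n = 3). The groups do not overlap in any pair, and the largest shifts are those of Lhfpl5 to Pcdh15 and Cib3 to Cib2, by 2.42 and -2.10.

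The genes were then set against other HC transcripts of the same library, by subtracting the mean log2 CPM of the 21 HC markers. That mean was 0.75 lower in IDPN-4wk than in control libraries. Relative to it, Pcdh15 differed by -2.20, Cib3 by -1.34, Loxhd1 by -1.09 and Tmc1 by -0.68 on the log2 scale, and the groups did not overlap for any of these. In each treated rat these genes were further below the markers, or less far above them, than in any control. Tmie and Cib2 were higher relative to the markers, by 0.92 and 0.76, again without overlap. These are levels of the whole pooled tissue. Which of its cells gave the Tmie and Cib2 transcripts was not tested, so their level per HC is not known. Without IDPN-4wk replicate 3 the difference of Cib3 was -0.89. Each of these 6 genes had p = 0.10 in the two-sided exact permutation test, the smallest possible for 3 against 3. After Benjamini-Hochberg adjustment over the 9 genes this p was 0.15. For Cdh23 the difference was -0.34 and for Lhfpl5 it was 0.22 (0.33 without IDPN-4wk replicate 2), with overlapping groups and an exact p of 0.20 each. Tmc2 had a difference of 0.10 (exact permutation p = 0.90), which turned to -0.21 without IDPN-4wk replicate 3. The HC markers themselves were not uniform, with log2-Fold changes from -2.56 to 0.48.

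**Figure D4:**
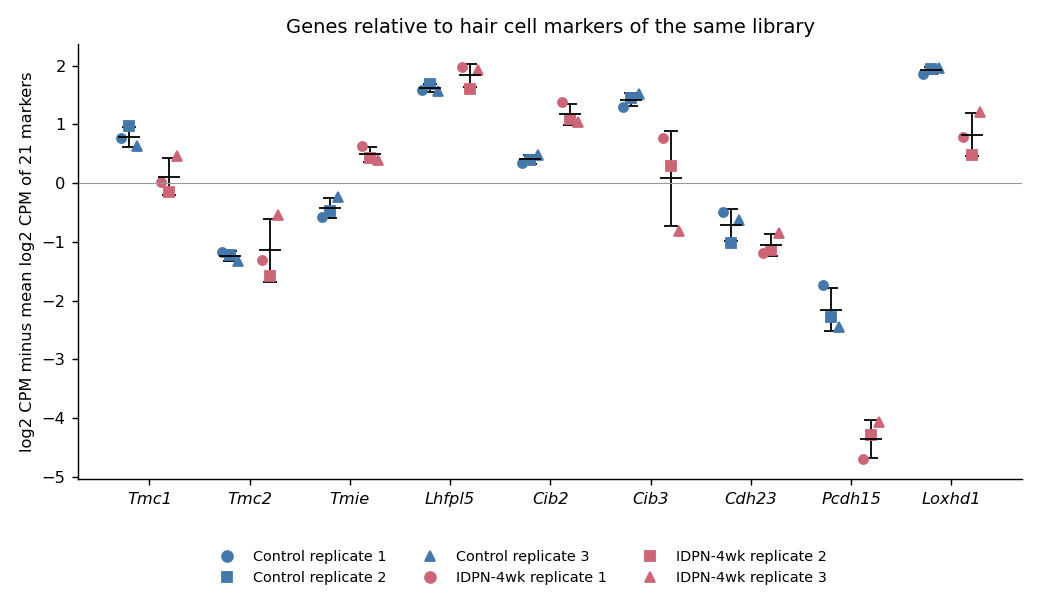
Log2 CPM of each gene minus the mean log2 CPM of 21 HC markers in the same library. Points are rats, with the shape giving the replicate, and bars are the mean and SD (n = 3). Tmie and Cib2 lie higher in IDPN-4wk than in control libraries, and Pcdh15, Cib3, Loxhd1 and Tmc1 lie lower.

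The start regions of the genes were compared, since members of the same machinery had moved differently. RefSeq (build GRCr8, another build than that of the counts) lists a start for all 9 genes, a single one for each except Loxhd1, which has 2. The dinucleotide CG, which reads the same on both strands, was counted in the 250 bases before each start. The windows of 3 genes are shown because they hold the lowest count among the genes and the contrast within the CIB pair. They are Tmc1 (minus strand, chr1:227872535-227872784), Cib3 (plus strand, chr16:17656203-17656452) and Cib2 (minus strand, chr8:63843278-63843527), printed 5′ to 3′ with CG in capitals.
Tmc1: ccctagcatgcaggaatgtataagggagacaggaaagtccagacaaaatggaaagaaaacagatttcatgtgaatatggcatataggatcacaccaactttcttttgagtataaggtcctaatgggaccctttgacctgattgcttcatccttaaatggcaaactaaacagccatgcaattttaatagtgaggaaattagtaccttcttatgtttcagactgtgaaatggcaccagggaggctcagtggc
Cib3: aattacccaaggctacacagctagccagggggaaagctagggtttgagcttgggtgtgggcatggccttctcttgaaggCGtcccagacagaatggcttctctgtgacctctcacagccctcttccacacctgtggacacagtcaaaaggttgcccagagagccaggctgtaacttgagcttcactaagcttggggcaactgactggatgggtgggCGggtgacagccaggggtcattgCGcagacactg
Cib2: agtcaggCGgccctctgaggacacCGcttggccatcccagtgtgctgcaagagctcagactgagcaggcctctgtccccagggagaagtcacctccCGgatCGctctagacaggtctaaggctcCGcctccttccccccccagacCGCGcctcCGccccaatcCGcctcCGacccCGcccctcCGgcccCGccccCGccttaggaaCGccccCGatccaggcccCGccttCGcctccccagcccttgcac

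The Tmc1 window held 0 CG, that of Cib3 held 3 and that of Cib2 held 18. Loxhd1 had 2 and 4 at its 2 starts, and Tmc2 and Pcdh15 had 6 each. Lhfpl5 had 22, Tmie 33 and Cdh23 38. The genes thus formed a group of 5 with at most 6 CG and a group of 4 with at least 18. Of the 5 genes with few CG, 4 were called lower, all but Tmc2. Of the 4 genes with many CG, only Cdh23 was. Over all RefSeq windows, 92.2% held a CG and 35.9% held 10 or more. Among 9640 tested genes with a single listed start, 10.1% of the 2460 with fewer than 10 CG and 4.86% of the 7180 with 10 or more were called lower. Calls of higher genes were also more frequent with few CG, at 5.16% against 2.26%. Among HC markers with a single listed start, 4 of 6 with fewer than 10 and 2 of 9 with 10 or more were called lower. The other markers of the 21 tested, some of them among the 10 called lower, were left out. The boundary of 10 was set after the counts had been seen, and these figures are given as a description without a test.

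**Figure D5:**
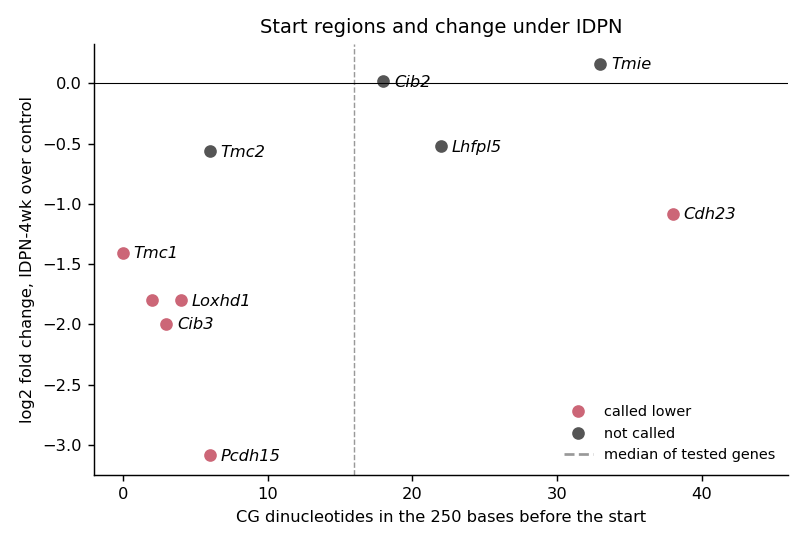
Number of CG dinucleotides in the 250 bases before the start of each gene against its log2-Fold change, IDPN-4wk over control. Each point is a gene start, with both starts of Loxhd1 shown, and the dashed line is the median of 16 CG over 9640 tested genes. Cdh23, with 38, is the only gene called lower to the right of that line.

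Other genes of the transduction apparatus and hair bundle were lower in part. Of 20 listed, 18 were tested, and 17 had a negative log2-Fold change, against 47.2% of all genes tested. Of the 18, 5 were called lower, against 6.62% of all genes, and the median was -0.29. None was called higher, against 3.09% of all genes, also 0 at an unadjusted p under 0.05, with DESeq2 and with limma voom. Atp2b2, the calcium pump of the bundle that clears calcium entering through the channel, fell from 131 ± 17.6 to 36.0 ± 9.71 CPM, or by 1.87 on the log2 scale. Ptprq, a receptor phosphatase at the base of the bundle, fell by 1.56 on that scale (edgeR Padj 0.00233), and Myo15a, the motor that carries cargo to stereocilia tips, by 1.17 (edgeR Padj 0.000788). Myo7a (-0.64) and Clic5 (-0.61) passed the fold change threshold narrowly. Elmod1 (-0.56, edgeR Padj 0.0370) and Grxcr2 (-0.32, edgeR Padj 0.0201) were lower without overlap but under that threshold. The proteins that anchor the upper end of the tip link include the scaffold harmonin, and its gene Ush1c had 1267 ± 25.3 CPM in controls and 1117 ± 53.6 CPM in treated rats, without overlap but not called (edgeR Padj 0.0918). Ush1g, the gene of the partner scaffold SANS, was low in both groups, with 1.41 ± 0.21 and 1.18 ± 0.32 CPM. Clrn1, Pdzd7, Whrn, Myo1c and Pjvk had log2-Fold changes between -0.07 and 0.00. RefSeq gives Tomt, whose product is needed for TMCs to reach the bundle, as an older symbol of Lrtomt, and the Lrtomt row gave -0.20 on the log2 scale (edgeR Padj 0.171).

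Relatives of these proteins that are not part of the HC transduction complex were measured beside them. Of 19 listed, 9 were tested, and their median log2-Fold change was 0.02. Of the 9, 1 was called lower and 2 higher, against 6.62% and 3.09% of all genes tested. Tmc4, of the same family as Tmc1, fell from 68.5 ± 1.99 to 40.9 ± 5.14 CPM (edgeR Padj 0.000583) and was the only relative called lower. Cdhr2 and Cdhr1, which encode cadherin-related proteins, were called higher, with log2-Fold changes of 0.94 and 2.12. Cdhr1 had 1.11 ± 0.37 CPM in controls and 4.87 ± 0.82 CPM in treated rats. Lhfpl2 and Lhfpl6 were the relatives with the most counts. Lhfpl2 had 161 ± 11.8 CPM in controls and 163 ± 7.39 CPM in treated rats. Lhfpl6 had 87.3 ± 9.56 and 64.6 ± 5.10 CPM, without overlap and with an edgeR Padj of 0.0106, but was under the fold change threshold.

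The genes with the pattern most like the median of the 9 members were found by the root-mean-square difference of log2 CPM, centred on each gene's mean, over the 6 libraries. These were Atp2a3, which encodes an endoplasmic reticulum calcium pump, Gpm6a, a neuronal membrane glycoprotein, Apba1, an adaptor protein of synapses, Ccdc81 and Lrtm2. Their differences from the median profile were 0.05, 0.06, 0.07, 0.08 and 0.08 on the log2 scale. Atp2a3 went from a mean of 255 to 118 CPM and Apba1 from 381 to 187 CPM. All 5 had log2-Fold changes between -1.11 and -0.99.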

How the data were processed

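The study sequenced SMART-seq2 cDNA made from oligo-dT primed RNA and mapped paired-end reads with STAR 2.5.3a to Rnor6.0, per the labels and methods. The deposited values are expected counts per gene estimated by the authors with RSEM 1.3.0 (version per the labels). They were whole numbers, and rounding changed none. RSEM shares reads of similar genes, and strand was not kept. Reads had no molecular identifiers, so amplification noise is counted within the spread between libraries. Intervals cover that spread and counting error, but not an amplification bias shared by all libraries.

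Groups came from the treatment label, 3 rats each, and the batch label is the same for all 6. Replicate numbers follow accession order and pair nothing. The IDPN-4wk rats share an animal code prefix that no control has, and what it marks cannot be told apart from treatment. Replicates differed by more than sampling noise, with a chi-square per degree of freedom of 7.94 to 16.1 within groups.

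After filterByExpr (at least 10 counts, total 15) and TMM scaling, genes were tested by quasi-likelihood in edgeR 4.0.16 (R 4.3.3), with Benjamini-Hochberg adjustment over 14352 genes. SEs were taken from the quasi F statistic. The procedure was tested on simulated data. Ratios used log2 CPM with a prior count of 2. Alternatives were library size alone, DESeq2 size factors, upper quartile scaling, other filters, DESeq2 1.42.0, limma 3.58.1 (voom), glmTreat and omission of each library. Start sequences were matched by symbol to RefSeq (GRCr8), 9 of 9.

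The members and lists were chosen with earlier results of these data known. All members were named. Transduction partners were named by role, relatives where called or among the 2 with the most counts, and nearest patterns were the 5 with the smallest difference. Overlapping genes and those of the closing section were picked with their values in view.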

Additional observations from a re-analysis of the deposited data

How the results depend on the processing

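The calls of Pcdh15, Cib3, Loxhd1 and Tmc1 held in all 14 alternatives run, which were 3 scalings, 2 filters, DESeq2, limma voom, glmTreat and the omission of each of 6 libraries. That of Cdh23 held in 13 and was lost with glmTreat (Padj 0.0532). With library size alone the median of all genes was 0.13 in place of 0.02, and the log2-Fold changes were shifted by about as much (Tmc1 -1.30, Cib2 0.13). With 1 library omitted, the genes called lower numbered from 5 to 7, with the 2 added calls, Tmc2 and Lhfpl5, appearing without IDPN-4wk replicate 3. The log2-Fold change of Cib2 ranged from -0.047 to 0.067 and turned negative when replicate 1 of the controls (-0.047) or of the treated rats (-0.037) was omitted. The value of Tmc2 relative to HC markers ranged from -0.21, without IDPN-4wk replicate 3, to 0.31.

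Transduction partners called lower numbered 3 with library size alone, 3 with glmTreat and from 3 to 6 with a library omitted, the lowest without control replicate 2. Relatives called higher numbered 1 with a mean count of at least 50 and 1 with glmTreat, which called 0 of them lower, against 1 in the edgeR test, limma voom and DESeq2 (2 at an unadjusted p under 0.05 with edgeR). HC markers called lower numbered 5 with glmTreat and from 7 to 11 with a library omitted. No paired analysis was possible because the groups hold different rats that no label pairs. A count of 0 allows up to 0.155 to 0.216 CPM, depending on the library.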

Other observations

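Cib3 was the member whose levels among treated rats ran against those of the other decreased genes, and genes nearest to its own profile were looked up after this had been seen. They were Dcdc2b, Gpr158, Tll2, Siglec5 and Tesc, at root-mean-square differences of 0.14 to 0.28 log2 units over the 6 libraries. Of these, Gpr158, which encodes an orphan receptor, had the most counts and fell from a mean of 10.4 to 2.78 CPM (edgeR Padj 0.000385). Tesc, which encodes the calcium-binding protein tescalcin, fell from 1.96 to 0.42 CPM (edgeR Padj 0.00503). The genes nearest to Loxhd1 were different ones and included Dner, a Notch-related receptor, and the ciliary genes Cfap77, Spag6l and Hydin, with log2-Fold changes of -1.78, -1.87, -1.73 and -1.77.

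The mechanosensitive channel genes Piezo1 and Piezo2 were looked at after their values had been seen. Piezo1 had 18.0 ± 5.73 CPM in controls and 27.7 ± 4.57 CPM in treated rats (edgeR Padj 0.0532) and was not called. Piezo2 was called lower, at 5.84 ± 1.76 CPM in controls and 2.80 ± 0.77 CPM in treated rats (edgeR Padj 0.0357).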
